A study of Homo sapiens with 20 samples.

Results

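The genes described here are 6 genes of MHC class II antigen presentation, HLA-DPA1, HLA-DPB1, HLA-DQA1, HLA-DMA, HLA-DMB and HLA-DOA, together with CIITA, the class II transactivator. They were chosen by name, with earlier results of these data known. Every probe set annotated to exactly 1 of these 7 symbols was taken. That gave 15 probe sets out of 33268 on the array and 7 genes out of 18416 with a probe set of their own. All 7 passed the filter on low values and stood among the 15850 genes tested. CIITA and HLA-DQA1 had 1 probe set each and the other 5 genes had 2 or 3, which never disagreed in the sign of a change.

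The study asked which transcripts respond when FOXO1 becomes active in established cell lines of classical Hodgkin lymphoma. The lines KM-H2 and L428, with UHO-1, SUP-HD1 and L1236, were kept for 24 h with 4-hydroxytamoxifen (4-OHT; 200 µM as labelled) or with ethanol vehicle, and each arm of each line was read on 2 arrays, 20 in all. Both arms of every line stably expressed FOXO1(3A)ER, an always active FOXO1 mutant joined to the hormone-binding part of the oestrogen receptor, so that 4-OHT switches the fusion on. The protocol text attached to all arrays names another fusion, KLF4ER, in KM-H2 and L428, whereas the array titles name FOXO1(3A)ER. No line without the fusion is among the arrays used here, and what 4-OHT does by itself cannot be told apart from what FOXO1 does. All values are log2 expression from the robust multichip average (RMA), where a difference of 1 is a doubling. KM-H2 and L428 (8 arrays) were normalised apart from the other 3 lines (12 arrays), so levels are compared only within these sets. The check of the labels by marker genes is the exception, where some ranges run over arrays of both sets.

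MHC class II molecules carry peptides from endosomes to the cell surface, where CD4 T cells read them. HLA-DP and HLA-DQ are such presenting molecules, built from an alpha and a beta chain, HLA-DM (HLA-DMA with HLA-DMB) loads their peptides, and HLA-DO (HLA-DOA with HLA-DOB) inhibits HLA-DM. CIITA does not bind DNA itself: it joins RFX, CREB and NF-Y, which sit on the X and Y boxes of class II promoters, and it is the switch without which these genes stay low. B cells express class II constitutively, plasma cells silence CIITA through PRDM1 (Blimp-1), and Hodgkin lymphoma cells often reduce class II or carry a damaged CIITA gene. KM-H2 is known to carry a CIITA gene fusion, and which part of the transcript the CIITA probe set reads is not known here.

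The labels were compared with marker genes before the results. The 4 arrays labelled L1236 went against theirs. They carried T cell genes at high level: CD3D, a chain of the T cell receptor complex, read 11.18 and 11.21 with 4-OHT and 11.37 and 11.33 with vehicle, and in the other 16 arrays it stayed between 4.72 and 5.43. The mean of 6 T cell markers was 10.69 to 10.78 (4-OHT) and 10.87 to 10.89 (vehicle) in these arrays, against at most 5.65 in any array of another line. IRF4, a factor high in Hodgkin cells, was 6.25 and 6.49 (4-OHT) and 6.48 and 6.14 (vehicle), against at least 11.04 on every other array. The mean of 8 Hodgkin markers was 6.73 to 6.89 under vehicle, against 9.37 to 9.39 in SUP-HD1 and 10.47 to 10.57 in UHO-1. Not every marker of that list was low: TNFRSF8 read 7.84 and 7.69 under vehicle, against 7.08 and 7.21 in SUP-HD1. The B cell gene CD79A was high in the 4 arrays labelled L1236 too, 11.71 and 11.68 with 4-OHT and 9.28 and 9.39 with vehicle. CD79B read 7.09 to 7.57, against at most 6.13 in UHO-1 and SUP-HD1. Other B cell markers were not high: PAX5 read 6.32 to 6.53, against at least 9.23 in UHO-1 and SUP-HD1. CD22 read at most 5.42 and MS4A1 at most 4.18 in the 4 arrays. These arrays are called "labelled L1236" below, and values that pool the lines are given with and without them.

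**Figure D1:**
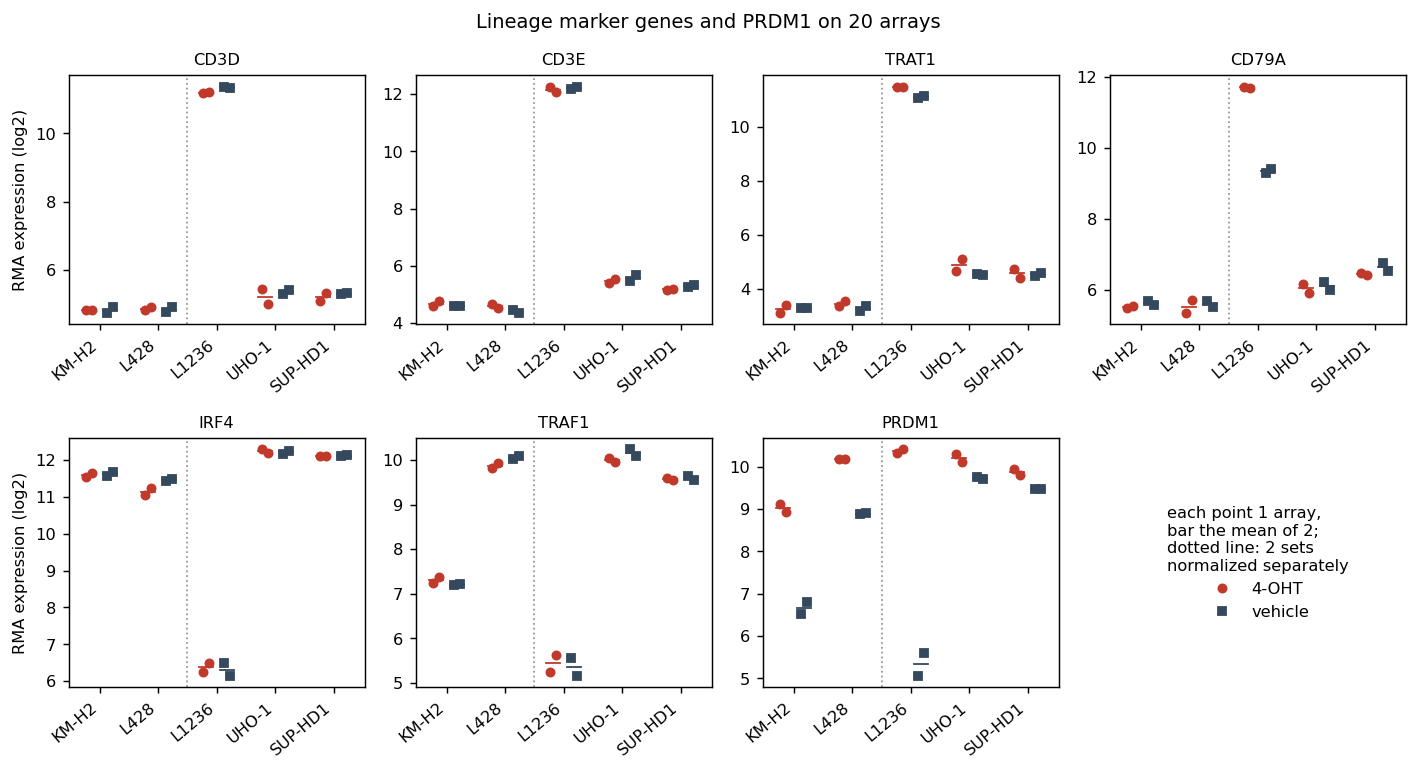
Lineage marker genes and PRDM1, in log2 RMA units, on each of the 20 arrays, by line, with 4-OHT (circles) to the left of vehicle (squares) and bars for the mean of 2 arrays. The arrays labelled L1236 stand apart, with CD3D, CD3E, TRAT1 and CD79A high and IRF4 and TRAF1 low, and PRDM1 was higher with 4-OHT in all 5 lines.

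Class II genes fell with 4-OHT, most of all in KM-H2. There all 6 class II genes and CIITA were lower, with class II changes from -0.56 to -1.59 log2 units, and HLA-DPB1 was 3.01-fold lower. In L428 the genes of HLA-DP and HLA-DM and CIITA fell (-0.30 to -0.50), UHO-1 showed falls of HLA-DPB1, HLA-DMB and HLA-DOA (-0.35 to -0.41), and SUP-HD1 had none that passed the test. In the arrays labelled L1236, where class II levels under vehicle were the lowest of their set, HLA-DPA1 alone passed. No member rose in any line.

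The mean change over the 5 lines was negative for all 7 members and passed limma's test for each (adjusted p at most 0.0036), where 21.2% of all tested genes passed as lower. The median of the 6 class II genes was -0.45, against -0.02 for all genes tested. Without the arrays labelled L1236, all 7 members passed again, with changes from -0.26 (CIITA) to -0.65 (HLA-DPB1). Without KM-H2, 4 passed (HLA-DPA1, HLA-DPB1, HLA-DMA and HLA-DMB, from -0.21 to -0.28), and HLA-DQA1 (-0.13), HLA-DOA (-0.13) and CIITA (-0.17) did not. With each line taken as 1 replicate, none passed: limma's unadjusted p lay between 0.0224 (CIITA) and 0.0923 (HLA-DPB1), and the adjusted p between 0.305 and 0.392. In that fit 0 of 15850 genes passed after adjustment and 2373 had an unadjusted p below 0.05, so the calls above describe the arrays of these 5 lines.

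By line, members called lower numbered 7 of 7 in KM-H2 (12.3% of all tested genes were called lower there), 5 in L428 (17.5%), 3 in UHO-1 (11.1%), 1 in the arrays labelled L1236 (14.9%) and 0 in SUP-HD1 (2.35%). The count in KM-H2 was far above that background and the count in the arrays labelled L1236 was near it. The members were chosen with earlier results of these data known, and their values move together. These counts are therefore no test of the members against other genes. In SUP-HD1, limma called 956 genes in either direction, and 4 members (HLA-DPB1, HLA-DMA, HLA-DMB and HLA-DOA) had an unadjusted p below 0.05, each with a negative change, as had 8.22% of all tested genes.

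**Figure D2:**
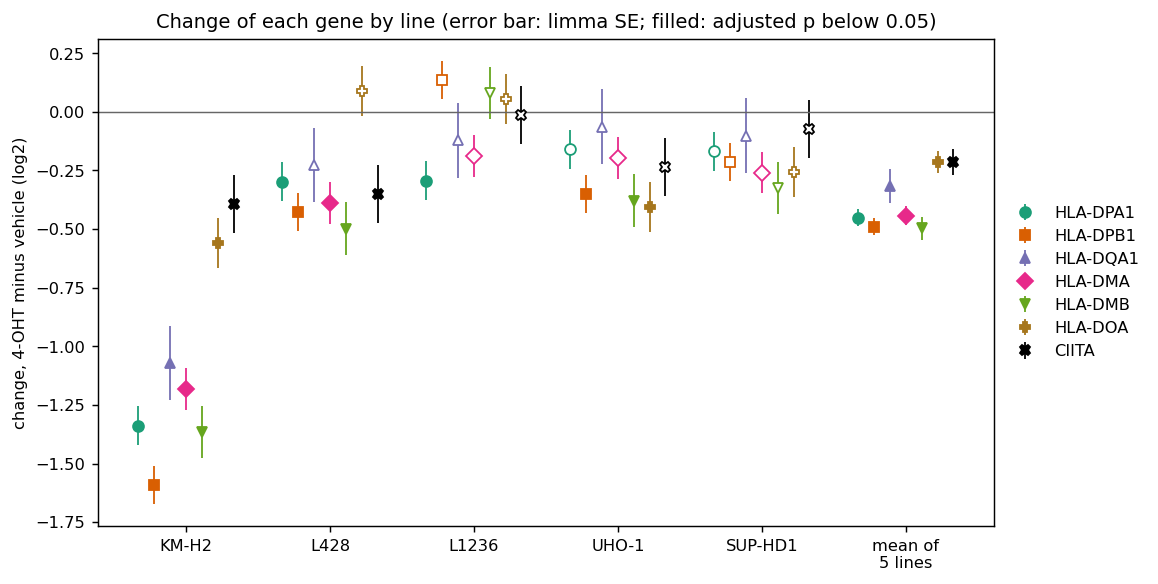
Change of the 7 genes, 4-OHT minus vehicle in log2 units, in each line and as the mean of 5 lines, with limma's standard error and filled symbols for an adjusted p below 0.05. In KM-H2 the 6 class II genes lie between -0.56 and -1.59 and CIITA lies at -0.39, close to its -0.35 in L428.

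The X and Y boxes are shown because they are the promoter elements through which CIITA acts on this whole group. RefSeq windows of GRCh38.p14, from 250 bases before to 50 after each listed start, held 6 of the 7 members, CIITA not among them. The letters searched, chosen with these windows in view, were, for the X box core, CNAG followed by 2 free bases, AC, 1 free base and GA, and for the Y box core ATTGG, on both strands. No match to either overlapped a match to the other. The stretches below run from position -130 to -41 relative to the listed start, 5′ to 3′ on the strand of the gene, with both cores in capitals.
HLA-DPA1: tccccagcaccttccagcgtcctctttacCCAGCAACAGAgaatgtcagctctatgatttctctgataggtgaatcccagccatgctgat
HLA-DPB1: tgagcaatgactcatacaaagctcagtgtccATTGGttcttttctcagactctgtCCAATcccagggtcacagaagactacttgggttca
HLA-DQA1: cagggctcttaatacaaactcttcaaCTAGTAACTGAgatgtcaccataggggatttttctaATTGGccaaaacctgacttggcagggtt
HLA-DMA: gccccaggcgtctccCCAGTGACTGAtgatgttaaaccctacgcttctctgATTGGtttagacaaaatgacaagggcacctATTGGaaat
HLA-DMB: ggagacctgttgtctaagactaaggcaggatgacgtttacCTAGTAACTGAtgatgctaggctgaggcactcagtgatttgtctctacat
HLA-DOA: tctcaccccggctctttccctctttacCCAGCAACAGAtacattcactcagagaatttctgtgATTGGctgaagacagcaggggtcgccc

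In order, the stretches are chr6:33073690-33073779 (minus strand), chr6:33075860-33075949 (plus), chr6:32637276-32637365 (plus), chr6:32953138-32953227 (minus), chr6:32941069-32941158 (minus) and chr6:33009632-33009721 (minus). The X box letters stood in the windows of 5 members, all but HLA-DPB1, and in 3.35% of all 35114 windows. The Y box letters stood in those of 5, all but HLA-DPA1, and in 34.6% of all windows. Both were present for 4 members (HLA-DQA1, HLA-DMA, HLA-DMB and HLA-DOA), and in 1.09% of all windows. Because the letters were chosen with the members' windows in view, these shares are no test of the members against other genes. HLA-DMB and HLA-DQA1 share the same 11 letters at the X box, CTAGTAACTGA, as do HLA-DPA1 and HLA-DOA with CCAGCAACAGA. For HLA-DMB the Y letters read CCAAT on the gene's strand and lie at position -22, outside the stretch shown, with the X letters at -90. The arrangement differs in HLA-DQA1, HLA-DMA and HLA-DOA, where X letters at -104, -115 and -103 are followed by ATTGG at -68, -79 and -67. HLA-DPA1 has another listed window with neither core. The forkhead letters GTAAACA, searched on both strands as a FOXO-type motif, were in none of these windows and in 3.42% of all windows. A match is a description of the letters and not a site of binding, and no match says only that these letters are not in the window.

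CIITA, the coactivator, was lower with 4-OHT in KM-H2 and L428. In KM-H2 it read 6.69 and 6.80 with 4-OHT against 7.17 and 7.11 with vehicle, a change of -0.39 ± 0.12 (SE, adjusted p = 0.024). In L428 it read 6.45 and 6.42 against 6.70 and 6.87, a change of -0.35 ± 0.12 (adjusted p = 0.0358). The arms did not overlap in either line. The share of all tested genes with arms apart is not given. Arms apart are therefore a description and no test, here and for the other members below. Both calls were fragile: the adjusted p rose to as much as 0.169 without an array of KM-H2 and 0.251 without an array of L428.

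In UHO-1, CIITA read 7.17 and 6.97 with 4-OHT against 7.40 and 7.22 with vehicle, -0.24 ± 0.12 (adjusted p = 0.161). In SUP-HD1 it read 7.84 and 7.89 against 7.86 and 8.03, and the arms overlapped (-0.07 ± 0.12, adjusted p = 0.866). In the arrays labelled L1236 it read 6.55 and 7.01 against 6.82 and 6.76, and the 2 arrays with 4-OHT lay on either side of the vehicle arrays (-0.01 ± 0.12, adjusted p = 0.968). Over the 5 lines CIITA changed by -0.21 ± 0.06 (adjusted p = 0.0036), and its change was not shown to differ between lines (F test, adjusted p = 0.243).

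HLA-DPB1, the beta chain of HLA-DP, had the largest change of the members in KM-H2. There it read 8.98 and 9.25 with 4-OHT against 10.73 and 10.68 with vehicle, a change of -1.59 ± 0.08 (adjusted p = 5.37e-13). L428 gave 10.20 and 10.16 against 10.62 and 10.60, -0.43 ± 0.08 (adjusted p = 0.000257). UHO-1 gave 10.78 and 10.77 against 11.10 and 11.15, -0.35 ± 0.08 (adjusted p = 0.00382). In these 3 lines every array with 4-OHT was below both vehicle arrays. SUP-HD1 showed the same order with a smaller gap, 11.50 and 11.49 against 11.71 and 11.71, which did not pass (adjusted p = 0.151). In the arrays labelled L1236 the gene stood at 6.06 and 6.12 against 6.11 and 5.80, with the arms overlapping. The other probe sets of HLA-DPB1 gave changes down to -1.87 in KM-H2. In a fit of every probe set, 2 of its 3 passed in L428 (the third at -0.31, adjusted p = 0.3) and 1 of 3 in UHO-1 (the others at adjusted p = 0.0578 and 0.166).

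HLA-DPA1, the alpha chain of HLA-DP, read 10.44 and 10.53 with 4-OHT against 11.82 and 11.83 with vehicle in KM-H2, -1.34 ± 0.08 (adjusted p = 1.40e-11). L428 gave 11.32 and 11.32 against 11.60 and 11.64, -0.30 ± 0.08 (adjusted p = 0.00799), and the call was lost without vehicle replicate 2 (adjusted p = 0.0642). The arms did not overlap in either line. UHO-1 (-0.16) and SUP-HD1 (-0.17) did not pass. The arrays labelled L1236 read 4.42 and 4.64 against 4.99 and 4.65, all below the floor of 5 used as the filter, so the change of -0.29 ± 0.08 (adjusted p = 0.0119) is a difference between 2 low signals. That call was lost when either replicate 1 array of the line was left out (adjusted p up to 0.297).

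HLA-DQA1, the alpha chain of HLA-DQ, fell in KM-H2, where it read 6.02 and 6.03 with 4-OHT against 7.23 and 6.95 with vehicle (-1.07 ± 0.16, adjusted p = 1.64e-05). Elsewhere its changes lay between -0.06 (UHO-1) and -0.23 (L428) and none passed. Under vehicle it read 5.74 and 5.82 in L428, where the median of all probe sets was 5.67 to 5.71 on arrays of that set. The medians of the other set were 6.26 to 6.41. There HLA-DQA1 read 5.95 and 5.76 (labelled L1236), 6.71 and 6.72 (UHO-1), and 9.61 and 9.20 (SUP-HD1). Whether a low level limits how far the gene can fall was not tested. HLA genes differ between people and have close relatives, and how well the probes match the alleles of each line was not tested, for HLA-DQA1 or the others.

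Both chains of HLA-DM, the peptide loader, fell in KM-H2 and L428. HLA-DMB read 7.95 and 8.14 with 4-OHT against 9.41 and 9.42 with vehicle in KM-H2, -1.37 ± 0.11 (adjusted p = 1.62e-09). HLA-DMA read 7.81 and 7.89 against 9.05 and 9.01 there, -1.18 ± 0.09 (adjusted p = 4.55e-10). Neither gene had overlapping arms in KM-H2. In L428, HLA-DMB read 7.76 and 7.66 against 8.12 and 8.29 (-0.50 ± 0.11, adjusted p = 0.00126). HLA-DMA read 7.81 and 7.94 against 8.34 and 8.18 in that line (-0.39 ± 0.09, adjusted p = 0.00164). The arms were apart for both chains in L428, UHO-1 and SUP-HD1. Where the change did not pass, this order describes the arrays and is no evidence of a fall. In UHO-1 HLA-DMB read 8.33 and 8.22 against 8.69 and 8.62 and passed at -0.38 ± 0.11 (adjusted p = 0.0176), a call lost without 3 of that line's 4 arrays and under median centring (adjusted p = 0.051). HLA-DMA in UHO-1 (-0.20) and both chains in SUP-HD1 (-0.26 for HLA-DMA, -0.32 for HLA-DMB) did not pass.

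HLA-DOA, a chain of the HLA-DM inhibitor, had another order of lines by its changes, which was not tested against the other members. It fell in KM-H2, 7.14 and 7.11 with 4-OHT against 7.75 and 7.62 with vehicle (-0.56 ± 0.11, adjusted p = 0.000333). It also fell in UHO-1, 7.34 and 7.21 against 7.61 and 7.75 (-0.41 ± 0.11, adjusted p = 0.00881), a call lost without replicate 2 of either arm (adjusted p up to 0.106). In L428 it read 7.33 and 7.28 against 7.11 and 7.31, so the arms overlapped and the change was 0.09 ± 0.11 (adjusted p = 0.611). In SUP-HD1 it read 8.24 and 8.36 against 8.53 and 8.57 and did not pass (-0.26 ± 0.11, adjusted p = 0.2).

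**Figure D3:**
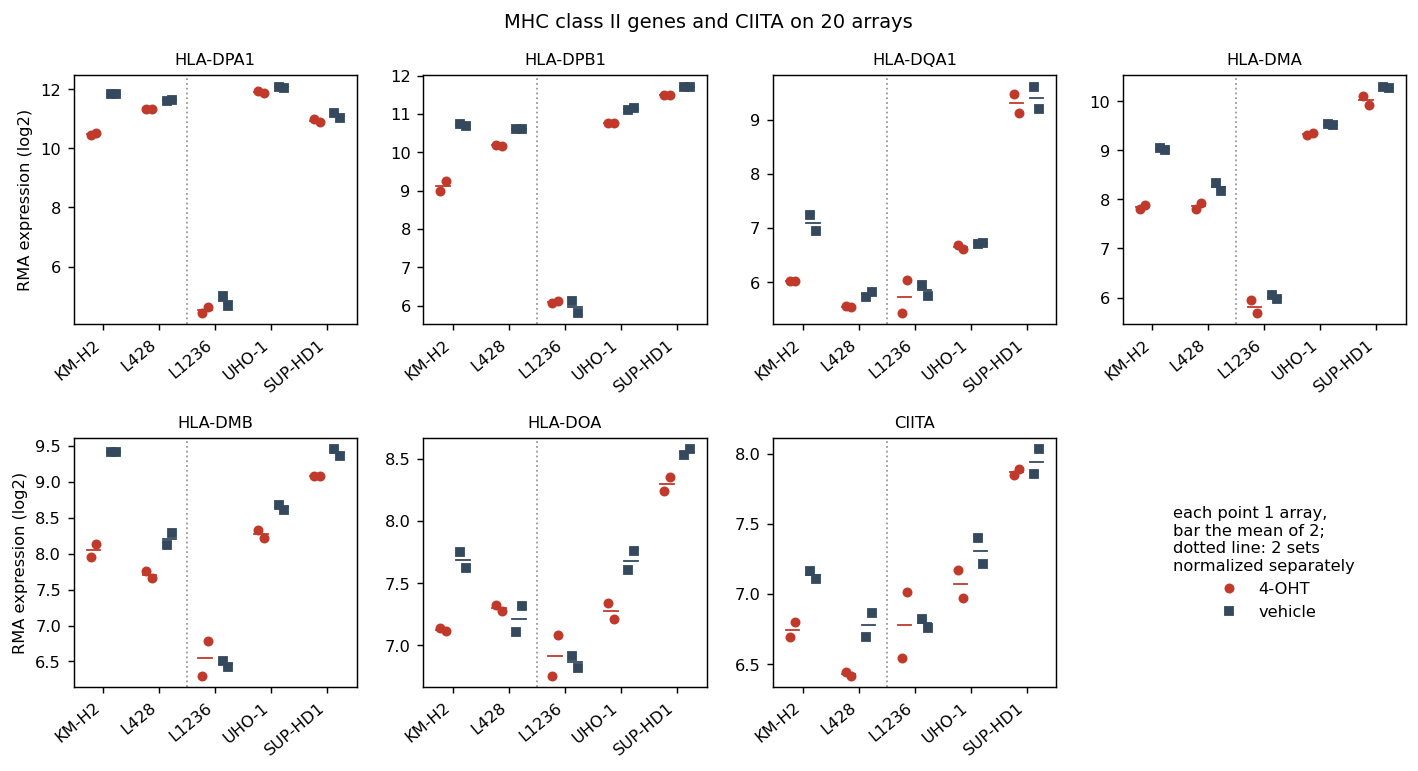
Level of each gene, in log2 RMA units, on every array, by line, with 4-OHT (circles) to the left of vehicle (squares) and bars for the mean of 2 arrays. KM-H2 shows the widest gaps between arms, for example 8.98 and 9.25 against 10.73 and 10.68 for HLA-DPB1. The arrays labelled L1236 hold the lowest HLA-DPA1 of their set, 4.42 to 4.99.

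The response differed between lines for all 6 class II genes (limma F test, adjusted p from 7.70e-10 for HLA-DPB1 to 0.00352 for HLA-DOA), where 42.7% of all tested genes passed. The same 6 passed without the arrays labelled L1236, where 36.4% of genes passed. Without KM-H2, HLA-DPB1 (adjusted p = 0.00161), HLA-DMB (0.042) and HLA-DOA (0.0431) passed and HLA-DPA1, HLA-DQA1 and HLA-DMA did not (0.537 to 0.928). KM-H2 stood apart: its change minus the mean change of the other 4 lines was negative and passed for the 6 class II genes, from -0.43 ± 0.12 (HLA-DOA) to -1.38 ± 0.09 (HLA-DPB1), where 10.8% of genes passed as lower. For CIITA that difference was -0.22 ± 0.14 (adjusted p = 0.308). Without the arrays labelled L1236 the values were -0.37 for HLA-DOA, -1.26 for HLA-DPB1 and -0.17 for CIITA, and again the 6 class II genes passed. The HLA-DOA call was lost without KM-H2 4-OHT replicate 2 or vehicle replicate 1 (adjusted p up to 0.101).

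In the other direction, the response minus that of the other lines was higher and passed for 4 members in the arrays labelled L1236 (8.86% of genes), 2 in SUP-HD1 (3.38%), 2 in UHO-1 (9.71%) and 1 in L428 (8.14%). The 1 in L428 was HLA-DOA (0.38 ± 0.12, adjusted p = 0.0253). Without the arrays labelled L1236, 4 members passed as higher in UHO-1 (9.68% of genes), 4 in SUP-HD1 (3.62%) and 3 in L428 (9.12%). The KM-H2 arrays are among the other lines in each of these differences. With KM-H2 left out, 7 of the 9 calls were lost. Those of HLA-DPB1 (0.47, adjusted p = 0.000507) and HLA-DMB (0.48, adjusted p = 0.0134) in the arrays labelled L1236 passed again. Both genes were low there: under vehicle HLA-DPB1 read 6.11 and 5.80, against 11.10 and 11.15 in UHO-1. HLA-DMB read 6.50 and 6.42, against 8.69 and 8.62 in UHO-1. The other HLA-DPB1 probe sets read 4.79 and 4.78, below the floor of 5, and 6.56 and 5.69 in the vehicle arrays labelled L1236. Whether such low levels limit how far these genes can fall was not tested. HLA-DMA in UHO-1 and HLA-DOA in the arrays labelled L1236 were each lost in 11 of 20 fits without 1 array and under a replicate block (adjusted p = 0.0513 for HLA-DMA and 0.0719 for HLA-DOA), and the other 7 in 0 to 4 of 20. Without KM-H2, the HLA-DPB1 difference was -0.28 in L428 (adjusted p = 0.0268), against 0.08 with it, and -0.000432 in SUP-HD1, against 0.34 with it.

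Under vehicle, class II levels differed between lines of a set. KM-H2 exceeded L428 for 6 of the 7 members (27.3% of genes were called higher), by 1.32 ± 0.16 for HLA-DQA1, 1.21 ± 0.11 for HLA-DMB and 0.36 ± 0.12 for CIITA. HLA-DPB1 was the exception (0.10 ± 0.08, adjusted p = 0.343), although 1 of its other probe sets passed, and its probe sets reached 0.57. The HLA-DPA1 call (0.21 ± 0.08, adjusted p = 0.0408) was lost without any 1 of the 4 vehicle arrays, and the CIITA call (adjusted p = 0.0174) without replicate 1 of either line (up to 0.151). With 4-OHT, levels of KM-H2 and L428 differed in both directions, a comparison that was not tested. KM-H2 read lower on both arrays for HLA-DPA1 (10.44 and 10.53 against 11.32 and 11.32), HLA-DPB1 and HLA-DOA. It read higher on both for HLA-DQA1 (6.02 and 6.03 against 5.56 and 5.54), HLA-DMB and CIITA, and for HLA-DMA the lines overlapped.

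In the other set, vehicle arrays labelled L1236 were below UHO-1 for all 7 members (27.2% of genes were called lower) and below SUP-HD1 for all 7 (27.4%). HLA-DPA1 read 4.99 and 4.65 there, below the floor of 5, so only a bound is given: it was at least 134-fold lower than in UHO-1 and at least 68.8-fold lower than in SUP-HD1, with the floor in place of each of these values. For CIITA the differences were -0.52 ± 0.12 from UHO-1 and -1.15 ± 0.12 from SUP-HD1. UHO-1 was below SUP-HD1 for 6 members (26.7%), with differences of -2.69 ± 0.16 for HLA-DQA1 and -0.63 ± 0.12 for CIITA, and above it for HLA-DPA1 (0.96 ± 0.08, and up to 1.46 by its other probe sets). The order of vehicle CIITA in this set was therefore labelled L1236, UHO-1, SUP-HD1 from low to high, with each step past the test (adjusted p = 0.000945 and 0.000118).

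CIITA and the class II genes were then set side by side. By line, the CIITA change and the median class II change were -0.39 and -1.26 in KM-H2, -0.35 and -0.34 in L428, -0.07 and -0.23 in SUP-HD1, -0.24 and -0.27 in UHO-1, and -0.01 and -0.03 in the arrays labelled L1236. KM-H2 and L428 thus had CIITA changes within 1 standard error of each other and unlike class II medians. The CIITA values rest on 1 probe set, which read 6.42 to 7.17 in these lines. Which part of the transcript it reads is not known here, and KM-H2 carries a CIITA gene fusion. How closely its signal follows the amount of CIITA RNA was not tested. Whether CIITA and the class II genes differ in how they vary between lines was not tested.

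After each line's mean was subtracted, the 20 arrays gave Pearson correlations with CIITA of 0.84 for HLA-DMB, 0.72 for HLA-DPB1, 0.71 for HLA-DPA1, 0.71 for HLA-DQA1, 0.69 for HLA-DOA and 0.61 for HLA-DMA. Spearman's rho ran from 0.58 (HLA-DMA) to 0.90 (HLA-DMB). The median over all 15849 other genes was 0.10. These are descriptions: both values of a point come from the same array and RNA, and the points share lines and treatment arms. Without KM-H2 (16 arrays) the values ran from 0.33 (HLA-DMA) to 0.88 (HLA-DMB). Without the arrays labelled L1236 they ran from 0.66 to 0.86, and without the 2 arrays farthest from the median of CIITA from 0.69 to 0.84.

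**Figure D4:**
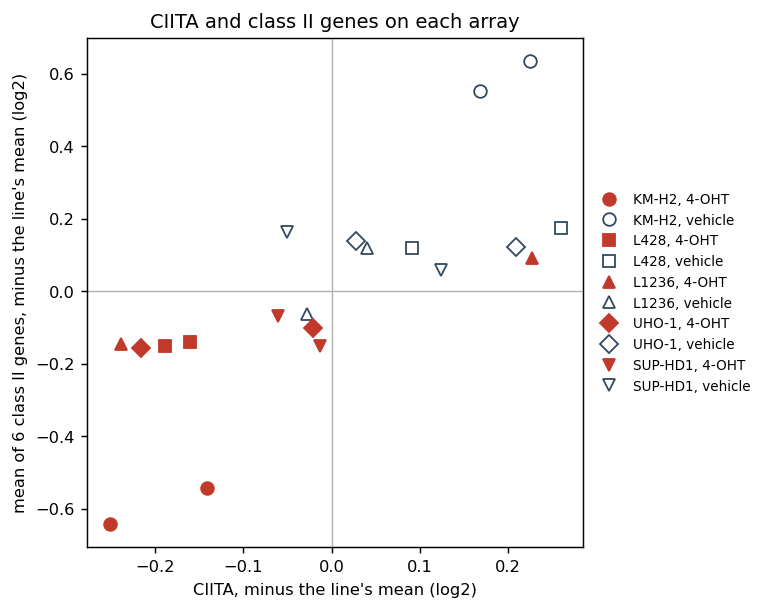
Each array's mean of the 6 class II genes against its CIITA value, both in log2 units after the mean of its line was subtracted, with 4-OHT filled and vehicle open. The 4 arrays of KM-H2 lie at the ends, with class II means of -0.64 and -0.54 (4-OHT) and 0.63 and 0.55 (vehicle), while their CIITA values, -0.25 to 0.22, lie close to the range of the other lines, -0.24 to 0.26.

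Of 15849 genes, HLA-DMB ranked 12 for likeness to CIITA, HLA-DPB1 191, HLA-DPA1 248, HLA-DQA1 257, HLA-DOA 342 and HLA-DMA 822. Highest were LINC00313 (r = 0.92), ECI1 (0.91), POLRMT (0.90), PLEKHG4 (0.89) and SLFN13 (0.89), and lowest were BBS10 (-0.94), ARCN1 (-0.91) and PCTP (-0.91). ECI1 is an enzyme of fatty acid oxidation and POLRMT the mitochondrial RNA polymerase. The genes most like the mean of the 6 class II genes, apart from members, were GPR55 (0.97), ABCD2 (0.97), XPO6 (0.96), JADE2 (0.96) and NLRP2 (0.96). In KM-H2, GPR55 changed by -1.75, ABCD2 by -1.82 and NLRP2 by -1.68. PRDM1, the plasma cell repressor, had r = -0.38 with CIITA over 20 arrays, -0.85 without the arrays labelled L1236 and -0.20 without KM-H2.

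PRDM1 rose in every line, by 5.04 in the arrays labelled L1236, 2.37 in KM-H2, 1.29 in L428, 0.41 in SUP-HD1 and 0.47 in UHO-1 (adjusted p at most 0.043). Its level with 4-OHT was 9.12 and 8.92 in KM-H2 against 6.52 and 6.79 with vehicle, and 10.32 and 10.40 in the arrays labelled L1236 against 5.06 and 5.59 with vehicle. In the arrays labelled L1236, CIITA did not pass the test, at 6.55 and 7.01 with 4-OHT against 6.82 and 6.76 with vehicle. Its vehicle level was the lowest of that set. Whether PRDM1 bears on CIITA in any line was not tested. Of 7 tested regulators of the CIITA promoter, 2 rose and 2 fell on average, with a median change of -0.05. Of all tested genes, 17.4% were called higher and 21.2% lower. Without the arrays labelled L1236, 3 of the 7 fell, where 21% of genes were called lower. IRF8, a partner of PU.1 in B cells, fell in L428 by 1.31 (8.22 and 7.99 with 4-OHT against 9.35 and 9.47 with vehicle). TCF3 rose in KM-H2 (0.29), L428 (0.17) and UHO-1 (0.18) and fell in the arrays labelled L1236 (-0.29), and PAX5 fell in UHO-1 (-0.33).

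The factors that hold CIITA on the X and Y boxes mostly did not pass on average. Of 7 tested, RFX5, the large subunit of the RFX complex, was the single gene whose average passed (-0.20, and -0.16 without the arrays labelled L1236). The list's median was -0.05, and 21.2% of all tested genes were called lower on average. In L428, 4 of the 7 fell (17.5% of all tested genes were called lower there), with a median of -0.18. RFX5 fell in KM-H2, to 9.57 and 9.54 against 10.09 and 10.05 with vehicle (-0.51), and in the arrays labelled L1236 (-0.36). RFXAP fell in KM-H2 (-0.36) and L428 (-0.45), while RFXANK was higher in KM-H2 (0.26) and lower in L428 (-0.29). NFYB fell in L428 (-0.54), CREB1 fell in L428 (-0.18) and rose in UHO-1 (0.15), and NFYA and NFYC passed in no line.

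Interferon gamma signalling, which induces CIITA in many cell types, was mostly higher on average. Of 8 tested genes, 6 rose (17.4% of all tested genes were called higher) and 2 fell (21.2% were called lower), with a median of 0.15. The counts were the same without the arrays labelled L1236. In KM-H2 1 of the 8 rose and 2 fell, with a median of -0.08. There 1592 of all 15850 tested genes were called higher and 1943 lower. In SUP-HD1 none of the 8 passed. JAK1, a receptor kinase, rose in 4 lines, by 0.88 in L428 and 0.89 in the arrays labelled L1236. IRF1, an activator of the inducible CIITA promoter, rose in UHO-1 (0.57), where JAK2 also rose (0.75). SOCS1, an inhibitor of these kinases and a neighbour of CIITA on the chromosome, fell by 1.98 in KM-H2, to 6.81 and 7.0 against 8.94 and 8.84 with vehicle. It also fell in L428 (-0.57), in the arrays labelled L1236 (-0.67) and in UHO-1 (-0.63), with SUP-HD1 at 0.03. IFNGR2 fell in KM-H2 (-0.76) and in the arrays labelled L1236 (-0.55).

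**Figure D5:**
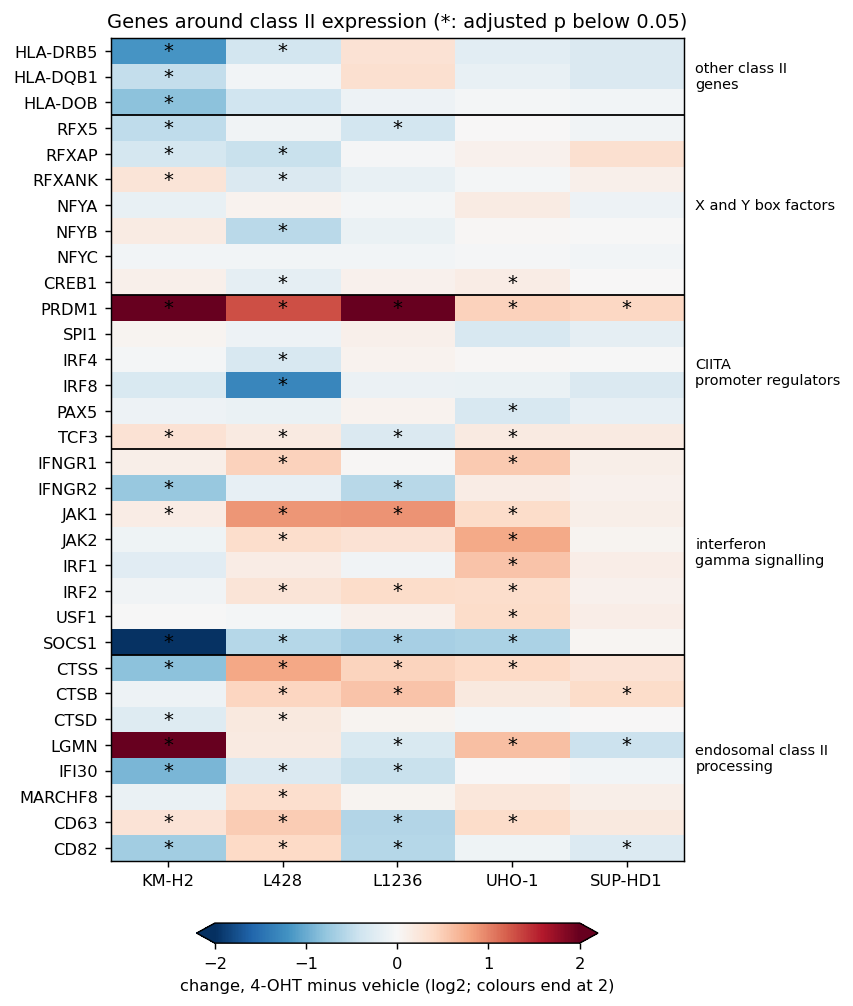
Change with 4-OHT, in log2 units, of genes of 5 lists in each line, with red for higher and blue for lower, colours ending at 2, and an asterisk for an adjusted p below 0.05. PRDM1 and LGMN reach 2.37 and 3.45 in KM-H2, and most X and Y box factors stay pale.

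Genes of endosomal processing were mixed. On average 5 of 8 tested rose and 2 fell, also without the arrays labelled L1236, with a median of 0.14. Of all tested genes, 17.4% were called higher on average and 21.2% lower. LGMN, an endosomal protease, rose in KM-H2 by 3.45, to 10.75 and 10.81 against 7.28 and 7.39 with vehicle, rose in UHO-1 (0.60) and fell in SUP-HD1 (-0.43) and in the arrays labelled L1236 (-0.30). CTSS, the protease that trims the invariant chain in B cells, fell in KM-H2 (-0.83) and rose in L428 (0.77), UHO-1 (0.39) and the arrays labelled L1236 (0.44). IFI30, a thiol reductase of endosomes, fell in KM-H2 (-0.91), L428 (-0.29) and the arrays labelled L1236 (-0.45). CTSB rose in L428 (0.43), in the arrays labelled L1236 (0.56) and in SUP-HD1 (0.37).

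Neighbours on the chromosome were counted as well. The shares of all tested genes beside these counts were 12.3% lower in KM-H2, and 21.2% lower and 17.4% higher on average. Of 14 tested genes of the class II region that are not class II genes, 4 fell and 1 rose in KM-H2, with a median of -0.15 against -1.26 for the 6 class II members. On average 6 of the 14 fell and 3 rose (median -0.09). The 4 that fell in KM-H2 were PSMB9 (-0.82), PSMB8 (-0.60), TAPBP (-0.50) and TAP1 (-0.36), all of class I presentation, and SLC39A7 rose (0.66), where TAP1 and SLC39A7 are named after their values were seen. Of 8 tested genes beside CIITA, 3 fell in KM-H2: SOCS1, DEXI (-0.35) and EMP2 (-0.52). In the class I list, 6 of 11 tested genes fell in KM-H2 and none rose, while on average 8 fell and 3 rose (6 fell and 3 rose without the arrays labelled L1236). NLRC5, the class I transactivator related to CIITA, did not pass in KM-H2 (-0.04) and rose in UHO-1 (0.37), SUP-HD1 (0.32) and the arrays labelled L1236 (0.35).

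Other class II genes with a probe set of their own were HLA-DRB5, HLA-DOB and HLA-DQB1. HLA-DRB5, a beta chain of HLA-DR, fell in KM-H2 to 6.39 and 6.33 against 7.56 and 7.52 with vehicle (-1.18) and in L428 to 5.95 and 6.04 against 6.41 and 6.32 (-0.37). HLA-DOB, the partner of HLA-DOA, fell in KM-H2 to 5.55 and 5.91 against 6.61 and 6.50 (-0.82). HLA-DQB1 passed in KM-H2 (-0.48), with all 4 arrays under the floor of 5. None of the 3 passed in UHO-1, SUP-HD1 or the arrays labelled L1236. HLA-DRB5 is close in sequence to other HLA-DRB genes, so its signal is uncertain. Of 8 costimulatory, coinhibitory and adhesion molecules of the T cell contact, 6 fell in KM-H2, among them CD80 (-1.20) and CD40 (-0.84). There 12.3% of all tested genes were called lower. The 2 of the 8 that rose in KM-H2, CD274 (0.38) and PDCD1LG2 (0.30), are the ligands of the inhibitory receptor PD-1. In the other lines at most 1 of the 8 fell.

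Genes of other cell types also moved in KM-H2, where 2 of 6 stromal markers rose and 1 fell. Of all 15850 tested genes, 1592 were called higher in KM-H2 and 1943 lower. LUM, a stromal gene, read 12.31 and 12.05 with 4-OHT against 3.57 and 3.25 with vehicle, and DCN 6.92 and 6.60 with 4-OHT against 3.49 and 3.26, while COL1A1 fell (-0.62) and COL1A2, COL3A1 and PDGFRB did not pass. The mean of 6 stromal markers was 7.02 to 7.21 with 4-OHT and 5.13 to 5.18 with vehicle. The T cell markers in KM-H2 stayed at a mean of 4.39 to 4.49 with 4-OHT and 4.46 to 4.51 with vehicle, and LYZ, a myeloid gene, at 3.15 and 3.24 against 3.25 and 3.26. Of 5 tested myeloid markers ITGAM fell (-1.60), and of 4 tested B cell markers CD22 fell (-1.17). In the arrays labelled L1236, LYZ read 8.07 and 7.79 against 4.37 and 4.18. The part of these markers in the class II changes was not tested, and fewer cells of a type and less RNA per cell cannot be told apart in bulk RNA.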

How the data were processed

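Per the labels, total RNA of 20 samples was read on Human Gene 1.0 ST arrays of Affymetrix. The values the authors deposited are on the log2 scale, from RMA (background correction, normalisation between arrays, summary of probes) in Expression Console, per the series' design text. Its version and the array's genome build are not known here. Sorted values lay within 0.253 of each other for arrays of KM-H2 and L428, within 0.204 for the other lines, and at least 0.712 apart between these sets, so each set had been normalised on its own.

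Gene names came from the platform annotation, and only probe sets with 1 symbol were used. For a gene with several, the probe set with the highest mean over 20 arrays stood for it. A gene needed a log2 value of at least 5 on at least 2 arrays, which left 15850 genes. A model of 10 group means was fitted with limma 3.58.1 in R 4.3.3 (lmFit, eBayes with trend, 10 residual degrees of freedom), with Benjamini-Hochberg adjustment across the 15850 genes in each contrast and a threshold of 0.05. The fit was checked on simulated data. The labels speak of 2 runs of the experiment without saying whether the arrays of an arm came from separate cultures, so p-values measure the spread between arrays, which may be technical. There is no read depth: 2 arrays per group limit the precision.

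The members, the 14 gene lists and the alternatives were chosen with earlier results of these data known. Genes named were all 7 members, the 5 highest and 3 lowest in likeness to CIITA, the 5 most like the class II mean, the 4 with the smallest average p of each list (any of a list of up to 8 tested genes), and PRDM1, SOCS1, IRF1, RFX5, RFXAP, RFXANK, NLRC5, CD74 and HLA-DRA. CD74 and HLA-DRA had no probe set with 1 symbol. A further gene of the rule is not reported here. Array numbers did not pair the samples: deviations of same-numbered arrays correlated at -0.08 (KM-H2), 0.04 (L428), -0.56 (labelled L1236), 0.29 (UHO-1) and 0.28 (SUP-HD1). Alternatives were other scalings, floors, probe set summaries, no trend, a replicate block, each set alone, and leaving out each array and line.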

Additional observations from a re-analysis of the deposited data

Results flagged for a closer look

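The change with 4-OHT differed between lines by limma's F test for 6 of the 7 genes. The adjusted p was 7.70e-10 for HLA-DPB1, 8.20e-08 for HLA-DPA1, 2.68e-06 for HLA-DMB and 3.48e-06 for HLA-DMA. It was 0.00329 for HLA-DQA1 and 0.00352 for HLA-DOA. The changes in KM-H2 and in the arrays labelled L1236 were -1.59 and 0.14 for HLA-DPB1, -1.34 and -0.29 for HLA-DPA1, and -1.37 and 0.08 for HLA-DMB. For HLA-DMA they were -1.18 and -0.19, for HLA-DQA1 -1.07 and -0.12, and for HLA-DOA -0.56 and 0.05. Without the arrays labelled L1236 the same 6 genes passed, with adjusted p from 2.37e-10 (HLA-DPA1) to 0.00327 (HLA-DOA).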

How the results depend on the processing

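All 7 members stayed called on average without any single array; by line the counts ran from 6 to 7 in KM-H2, 3 to 5 in L428 (3 without vehicle replicate 2), 1 to 2 in the arrays labelled L1236 (2 without 4-OHT replicate 1), 1 to 3 in UHO-1 (1 without replicate 2 of either arm) and 0 to 1 in SUP-HD1 (1 without either 4-OHT array labelled L1236). With an array left out, its arm has 1 sample, which is assumed to vary like the others. F test calls ran from 6 to 7, vehicle differences from 25 to 27 of 28, line differences from 12 to 17 of 35 (main 15) and the median likeness of the class II genes to CIITA from 0.64 to 0.75 (main 0.71; 0.59 without KM-H2). Genes called ran from 5679 to 6236 on average (main 6122), 2518 to 3654 in KM-H2, 3751 to 4825 in L428, 433 to 1014 in SUP-HD1 (main 956), 1857 to 4275 in UHO-1 (main 3878) and 2378 to 3781 in the arrays labelled L1236. UHO-1 fell to 2328 or fewer without any 1 of its 4 arrays, SUP-HD1 to 451 or fewer without either 4-OHT array, and the arrays labelled L1236 to 2378 without 4-OHT replicate 2. With lines as replicates 0 genes and 0 members passed, and without KM-H2 4 members passed on average and 3 by the F test. The set of L1236, UHO-1 and SUP-HD1 alone called 3979 genes on average and 1 member by the F test. Cyclic loess called 0 members in the arrays labelled L1236, quantile normalisation of all arrays 1 in SUP-HD1, and median centring 626 genes in SUP-HD1. With KM-H2 left out, HLA-DPB1 in L428 minus the other lines turned to -0.28 and in SUP-HD1 to -0.000432. The replicate block gave 5877 genes on average, 7 members on average and in KM-H2, 5 in L428, 3 in UHO-1, 1 in the arrays labelled L1236 and 0 in SUP-HD1; it ended the vehicle HLA-DPA1 call between KM-H2 and L428 (adjusted p = 0.0578). With the numbers of the arrays labelled L1236 crossed in the block, 6866 genes passed on average and 1 member in SUP-HD1. CIITA's calls in KM-H2 and L428 were also lost with all probe sets as rows (adjusted p = 0.053 and 0.0648), an alternative chosen after seeing the data, as were the crossing and the F test and line differences without a line. Over 3694 recomputed results of single members, 3508 kept direction and side of the threshold, 107 lost and 29 gained a call, and 48 uncalled values turned sign. The cause of these shifts was not tested.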

Other observations

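Probe sets with several symbols, of which 1 is a class II gene or CD74, the invariant chain, were kept out of the comparisons because their signal cannot be given to 1 gene. There were 16, of which 14 held distinct values. On average over the 5 lines all 14 were lower with 4-OHT and passed in a fit of every probe set, with a median of -0.36, where 15.8% of all 25331 probe sets passed as lower. All 14 passed as lower in KM-H2 (median -1.42; 8.26% of probe sets), 12 in L428 (-0.45; 13.2%), 7 in UHO-1 (-0.26; 6.93%) and none in SUP-HD1 (-0.10; 0.991%). In the arrays labelled L1236 none passed as lower (10.6% of probe sets) and 3 passed as higher (7.04%), with a median of 0.14. Their median level was 9.67 with 4-OHT and 11.24 with vehicle in KM-H2, 10.34 and 10.71 in L428, 11.96 and 12.06 in SUP-HD1, 9.66 and 9.83 in UHO-1 and 6.08 and 5.90 in the arrays labelled L1236.

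HLA-DQB1, the beta chain of HLA-DQ, was above the floor of 5 in SUP-HD1 alone, at 8.23 and 7.73 with 4-OHT and 8.12 and 8.44 with vehicle. In UHO-1 it read 4.23 and 4.48 with 4-OHT and 4.41 and 4.59 with vehicle. SUP-HD1 also held the highest vehicle HLA-DQA1 of its set, 9.61 and 9.20.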
